A study of Mus musculus with 4 samples.

Results

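The translation initiation and elongation factors of mouse type 1 innate lymphoid cells (ILC1s) were followed across 4 RNA sequencing libraries. Members were the protein-coding genes of the count table whose symbol starts with Eif followed by a digit from 1 to 6, or with Eef followed by 1 or 2. The choice used symbols only and no measured value. It gave 67 genes of 40481 in the table, among them the eIF4E-binding proteins, the eIF2 kinases and the methyltransferases of the elongation factors. It left out 6 processed pseudogenes and 1 noncoding RNA gene with matching symbols.

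ILC1s are tissue-resident relatives of natural killer cells, and the series' design text says they were selected by the integrin CD49a. Control libraries 1 and 2 came from Inpp4b flox/flox mice (n = 2), and libraries 3 and 4, labelled knockout, from Ncr1-iCre Inpp4b flox/flox mice (n = 2). Both groups thus carried the floxed alleles, and the groups differed by the iCre transgene named after Ncr1, the gene of the receptor NKp46. The transgene itself and a deletion in Inpp4b cannot be told apart in this design. Liver is given as the tissue of control library 1, and ILC1 as the cell type of every library. The age of the mice, their number per library and any pooling are not given in the sources used here. P-values therefore measure only the spread between these libraries, which may be technical.

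Protein synthesis starts when eIF2 brings the initiator tRNA to the small ribosomal subunit, which is held open by eIF1, eIF1A and the large eIF3 complex. The eIF4F complex binds the mRNA cap and unwinds the leader, eIF5 and eIF5B join the large subunit, and eEF1 and eEF2 then drive each round of elongation. AKT signalling reaches this machinery through mTOR, which phosphorylates the eIF4E-binding proteins, and stress reaches it through kinases of eIF2. Lymphocytes are known to keep synthesis low at rest and to raise it on activation.

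Library totals ranged from 42380840 to 54878210 counts. Inpp4b, the targeted gene, was at 78.7 and 106.5 CPM (counts relative to the library total after TMM scaling) in controls and at 142.5 and 86.0 CPM in the knockout-labelled libraries (log2 fold change 0.30 ± 0.28 SE, adjusted p = 0.828 in edgeR), and the whole-gene count does not check a deletion of some exons. All 13 ILC1 markers, Inpp4b among them, were detected, with sums of 12815 and 13681 CPM in controls against 12837 and 13877 CPM. Single markers moved both ways. In 3 both knockout-labelled libraries lay above both controls, where 19.5% of all genes tested did. In 4 both lay below, where 20.8% did, and 0 of the 13 had an edgeR adjusted p under 0.05. Ncr1, among the 4, was at 1672 and 1772 against 1202 and 1077 CPM (log2 fold change -0.60 ± 0.14 SE, adjusted p = 0.28 in edgeR). Genes listed as markers of other cells were also read, and which cells they came from was not tested. The 14 myeloid markers summed to 883.4 and 1007 CPM in controls and to 2951 and 3574 CPM in the knockout-labelled libraries, and the 10 T cell markers to 2429 and 2400 against 2926 and 3977 CPM. The 8 conventional NK cell markers summed to 51.8 and 65.0 against 300.2 and 884.3 CPM. Single genes held much of these sums. Itgax was at 480 and 492 against 510 and 538 CPM, and Cd3g at 1469 and 1255 against 1623 and 1930 CPM. Trac was at 7.31 and 5.67 against 85.1 and 200.9 CPM. Trbc1 was at 443 and 616 against 390 and 425 CPM, and Trbc2 at 446 and 467 against 527 and 694 CPM. In 7 of the 9 tested T cell markers both knockout-labelled libraries lay above both controls and in 1 below, beside the same 19.5% and 20.8%. Of the NK cell markers, Klra7 was at 27.8 and 37.5 against 250.8 and 520.6 CPM. Klra1 was at 3.74 and 5.97 against 19.0 and 327.5 CPM, high in knockout library 4 alone. Of the tested markers, 9 of 13 myeloid, 1 of 9 T cell and 1 of 8 conventional NK cell genes were higher at an edgeR adjusted p under 0.05. Of all genes tested, 0.141% were. None of these lists held a marker at 0 in every library. The B cell, hepatocyte, and erythroid and platelet lists held 0 called genes, with sums between 12.3 and 653.7 CPM. Translation factors are made in each of these cell types, and the part of the other cells in the values below was not tested. Fewer cells of a type and less RNA per cell cannot be told apart in such bulk libraries.

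The translation factors took a somewhat larger share of the knockout-labelled libraries. They held 1.81% and 1.79% of all counts in the controls and 1.97% and 1.93% in the knockout-labelled libraries, with sums of 17120 and 18373 against 19422 and 20206 CPM. Both libraries labelled knockout thus lay above both controls. Eef1a1, which encodes the GTPase that delivers tRNAs to the ribosome, made up 27.4% and 29.2% of the factors' counts in controls and 30.6% and 30.5% in the knockout-labelled libraries.

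No single factor passed the test over all genes. Of the 67 factors, 63 passed the filter on low counts, and edgeR called 0 of them at an adjusted p under 0.05, where 0.155% of the 14863 genes tested were called in either direction (0.141% higher and 0.0135% lower). DESeq2 also called 0, where it called 1.58% of all genes higher and 1.26% lower. Before adjustment, 4 factors were higher at an edgeR p under 0.05, where 4.48% of all genes were, and 1 was lower, where 5.17% were. The 4 were Eif3g, Eif3h, Eif3m and Eif1, and the 1 was Eif4enif1.

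Small shifts upward were more common among the factors than downward ones. In 26 factors both libraries labelled knockout lay above both controls, a share of 41.3%, where 19.5% of all genes tested did so. In 7 factors, or 11.1%, both lay below both controls, where 20.8% of all genes did so. The remaining 30 overlapped. These counts were recomputed under other scalings after the data were seen. With plain library totals in place of TMM, 20 factors lay above (31.7%, against 17% of all genes) and 8 below (12.7%, against 23.3%). The median log2 fold change of the 63 was 0.10, beside -0.01 over all genes tested, and 41 of them lay above 0 (65.1%, against 48.7% of all genes). These shares are descriptions, since the factors are not independent of each other. All genes tested include weakly expressed ones, and shares for genes of at least 10 CPM are given below by exon length. The median factor differed 1.12-fold between the 2 controls and also 1.12-fold between the 2 libraries labelled knockout.

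**Figure D1:**
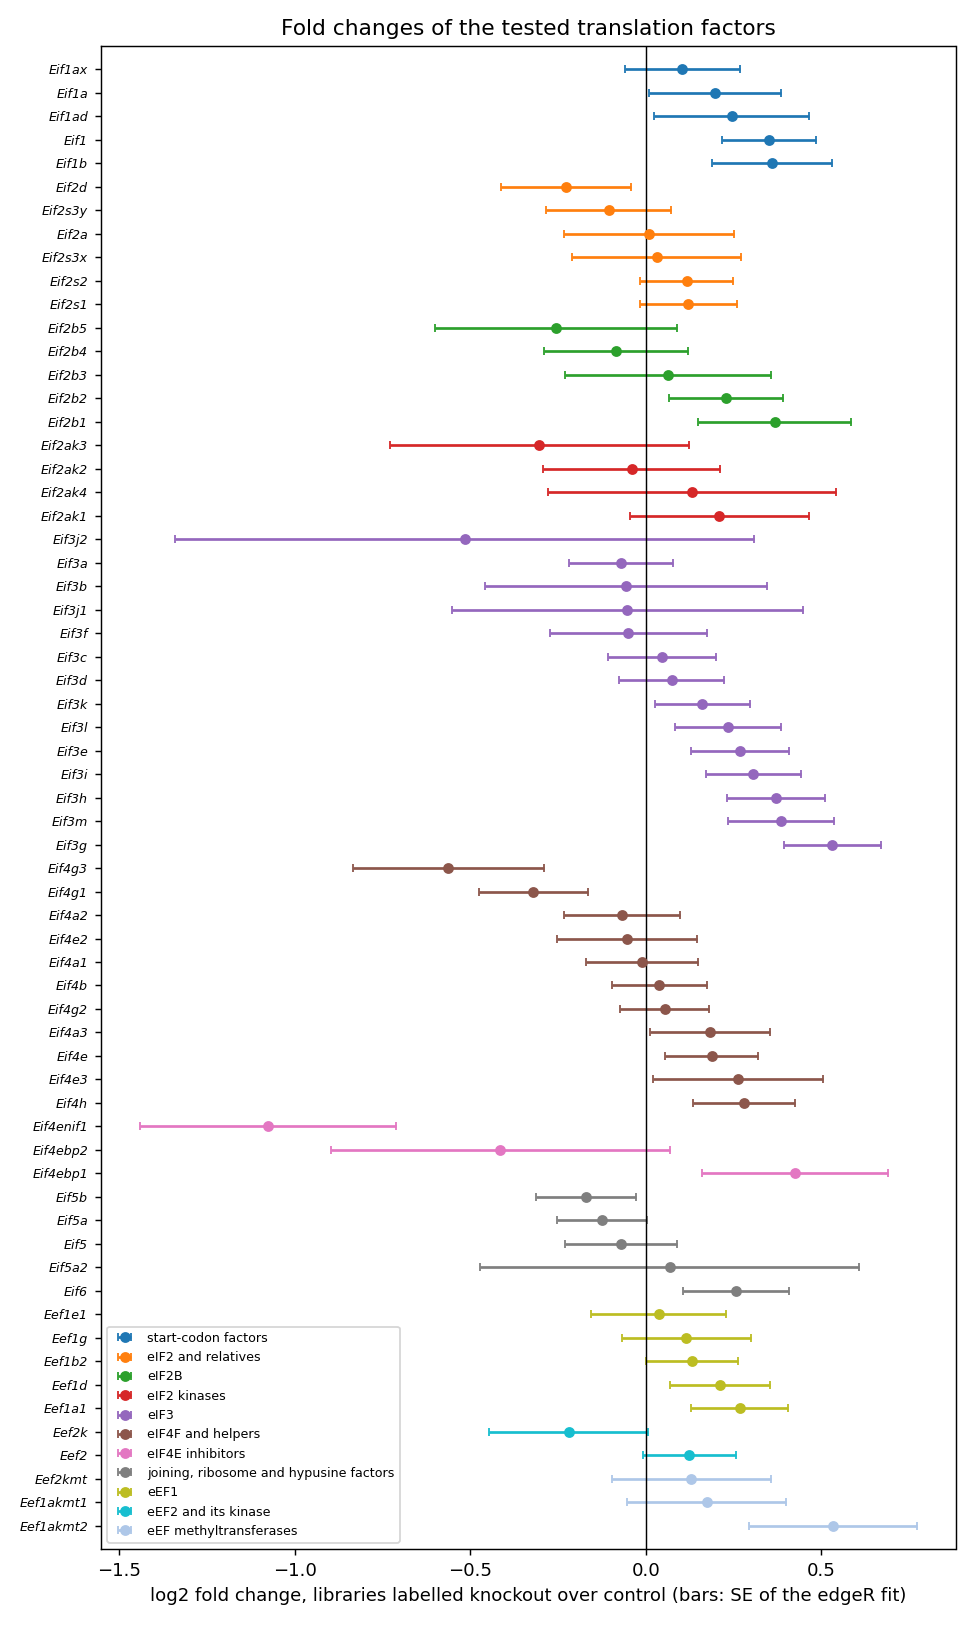
Log2 fold change (horizontal axis, libraries labelled knockout over control) of the 63 tested translation factors, grouped and coloured by role. Points are edgeR estimates from 2 libraries per group and bars are their SE. Eif4enif1 lies farthest left at -1.08, and Eif3g at 0.53 is the highest of the eIF3 genes.

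Levels per length spanned more than 3 orders of magnitude and differed far more between factors than between libraries. On the scale of CPM per kb of exon, Eef1a1 was highest at a mean of 2221 over the 4 libraries. It was followed by Eif1, a factor of start-codon choice, at 591.2, by Eef2, the translocation GTPase, at 477.2, and by Eif5a, the factor that carries hypusine and relieves stalled ribosomes, at 441.6. Eif3h, an eIF3 subunit, followed at 301.2 and Eif4g2, a scaffold that lacks the eIF4E-binding site, at 182.7. The lowest tested factors were Eif5a2, the tissue-restricted copy of Eif5a, at 0.69, Eif2ak4, the amino-acid-sensing kinase GCN2, at 0.71, and Eif4ebp2, an eIF4E-binding protein, at 1.03. The remaining 4 of the 67 did not pass the filter. Eef1a2, the elongation factor of muscle and neurons, had 2 and 2 counts in controls and 20 and 0 counts in the knockout-labelled libraries. Eif4e1b, a cap-binding protein of oocytes, had 2 and 0 against 7 and 1 counts, Eif4ebp3 had 14 and 2 against 0 and 6 counts, and the methyltransferase gene Eef1akmt3 had 51 and 2 against 3 and 1 counts.

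**Figure D2:**
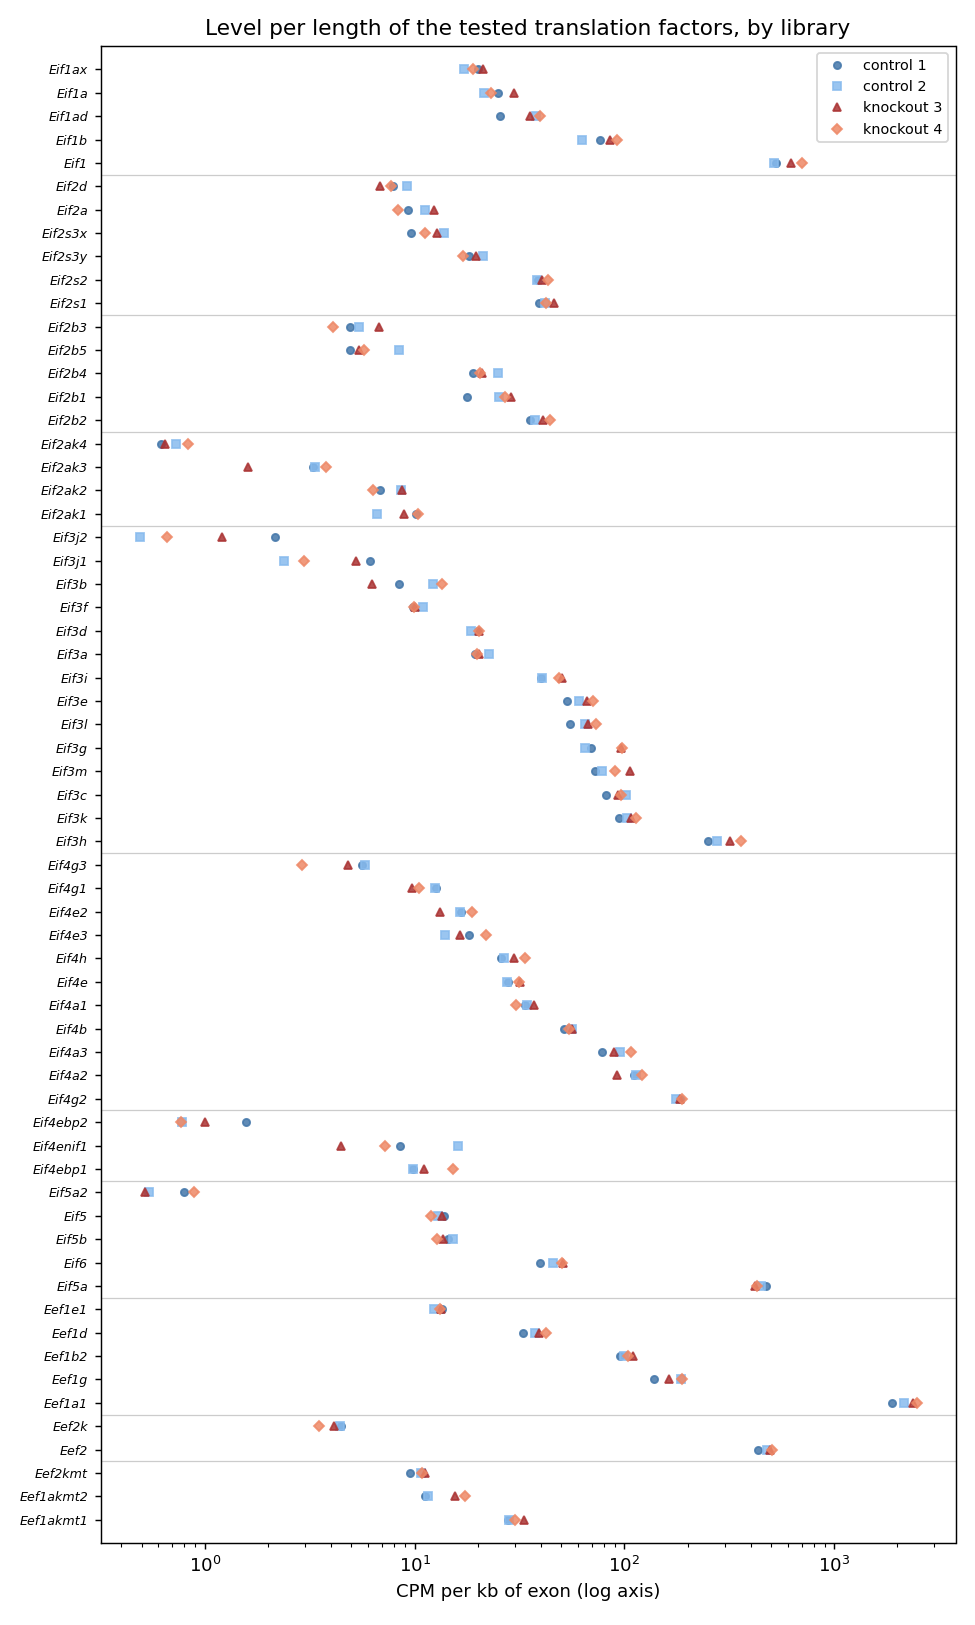
Level of each tested translation factor in CPM per kb of exon (horizontal log axis) in the 4 libraries, 1 symbol per library, with grey lines between role groups. Eef1a1 reaches a mean of 2221 and Eif5a2 a mean of 0.69, and the 4 symbols of a factor mostly lie close together.

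The start-site windows of the most abundant factors are shown because 3 of the top 4 by level share letters of a TATA box there. RefSeq promoters (GRCm38.p6) were matched by symbol for 51 of the 67 factors, with 66 start sites. Each window runs from 30 bases before the annotated start to 30 bases from it, on the strand of the gene. Capitals mark TATAAA or TATATAA and, at the start, a pyrimidine run, meaning a C within 5 bases of the annotated start that is followed by at least 4 further pyrimidines. At the 5′ end of an mRNA such runs mark those whose translation depends on mTOR, and a run at an annotated start need not be that end. The X- and Y-linked copies of the eIF2 gamma subunit are shown as a pair in which both carry the run.
Eef1a1, chr9:78481695-78481754, minus strand: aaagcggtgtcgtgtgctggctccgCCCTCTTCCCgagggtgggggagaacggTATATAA
Eif1, chr11:100319919-100319978, plus strand: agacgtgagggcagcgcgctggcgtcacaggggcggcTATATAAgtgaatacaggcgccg
Eef2, chr10:81176601-81176660, plus strand: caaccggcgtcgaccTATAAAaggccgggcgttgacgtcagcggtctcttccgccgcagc
Eif2s3x, chrX:94212622-94212681, minus strand: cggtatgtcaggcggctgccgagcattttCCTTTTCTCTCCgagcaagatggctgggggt
Eif2s3y, chrY:1010565-1010624, plus strand: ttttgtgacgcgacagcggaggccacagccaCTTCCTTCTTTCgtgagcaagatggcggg

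TATAAA or TATATAA was found on the sense strand of 3 of the 66 windows (4.55%), those of Eef1a1, Eif1 and Eef2, and in 2.37% of the 32851 windows of all promoters in the table. On the other strand it was found in 0 windows of the factors and in 1.18% of all. This motif was chosen after the sequences were seen. The pyrimidine run stood at 16 of the 66 starts (24.2%), in 14 genes, and at 18.3% of all starts. The 14 factors with a run had a median log2 fold change of -0.01 and the 36 tested factors without one a median of 0.06. This split rests on annotated starts, so it cannot speak about mRNAs that depend on mTOR. Eef2 was counted without a run, though a stretch of pyrimidines stands further into its window. Annotated starts can lie some bases away from the real ones, and the TATATAA of Eef1a1 and of Eif1 lies downstream of theirs. A missing match thus says only that the letters are not in this window. A marked run need not lie at the 5′ end of the mRNA. In Eef1a1 the marked run stands upstream of the TATATAA.

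The 5 genes whose symbol starts with Eif1, grouped as factors of start-codon choice, were all above 0 in fold change. Eif1 was at 1103 and 1078 CPM in controls and at 1309 and 1472 CPM in the knockout-labelled libraries. Both of the latter lay above both controls, with group means of 1090 ± 18.1 and 1390 ± 115.2 CPM (SD, n = 2 each) and a log2 fold change of 0.35 ± 0.14 (SE), for which edgeR gave an adjusted p of 0.49. Eif1b, its close relative, was at 85.7 and 70.3 against 96.5 and 103.6 CPM (log2 fold change 0.36 ± 0.17 SE, adjusted p = 0.58 in edgeR). Within each library Eif1b stood at 0.145 and 0.122 of Eif1 per length in controls and at 0.138 and 0.131 in the knockout-labelled libraries, which overlapped. Eif1a and Eif1ax, which encode eIF1A proteins that help scanning, overlapped between groups. Eif1ax was at 106.0 and 90.9 against 111.9 and 99.7 CPM, and Eif1a at 104.1 and 89.3 against 124.8 and 96.8 CPM. Eif1ad, placed in the group by its symbol only, was at 71.3 and 105.8 against 99.6 and 110.2 CPM and overlapped. The median log2 fold change of the 5 genes was 0.24, which is the value of Eif1ad. Of the 50-base stretches of Eif1, 19.2% also occur in transcripts of other genes, so its counts could hold or lack reads of those genes.

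The subunits of eIF2, which carries the initiator tRNA, were nearly level between the groups. Eif2s1, which encodes the alpha subunit that stress kinases phosphorylate, was at 194.9 and 207.3 CPM in controls and at 228.3 and 209.0 CPM in the knockout-labelled libraries. Eif2s2, the beta subunit gene, was at 262.1 and 258.7 against 272.1 and 292.2 CPM. Both genes lay apart upward, where 19.5% of all genes tested did, and neither was called. Eif2a (57.2 and 68.9 against 75.8 and 50.9 CPM), a factor of alternative initiation, overlapped, while Eif2d, a factor that also places tRNAs and recycles ribosomes, was lower in both libraries labelled knockout at 50.7 and 56.7 CPM against 58.1 and 67.6 CPM.

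The gamma subunit has a gene on each sex chromosome, and both were read in all 4 libraries. Eif2s3y (chromosome Y, 1010543 to 1028847 in mm10) was at 75.8 and 88.6 CPM in controls and at 82.0 and 70.7 CPM in the knockout-labelled libraries. Eif2s3x (chromosome X, 94188707 to 94212862) was at 36.8 and 52.5 against 48.7 and 42.6 CPM. The groups overlapped for both. Per length the Y copy exceeded the X copy in every library, at ratios of 1.889 and 1.545 in controls and of 1.544 and 1.522 in the knockout-labelled libraries, so that the groups all but touched. The Y-linked genes Ddx3y, Kdm5d and Uty were detected in every library too, and Xist, the RNA that silences an X chromosome in female cells, had 0 counts in all of them. A count of 0 allows up to 0.0517 to 0.0698 CPM of Xist in these libraries (3 counts each, counting error only). Of the distinct 50-base stretches in Eif2s3x transcripts, 34.6% also occur in transcripts of other genes, chiefly the gene Gm2223, and 0% of those of Eif2s3y do, so that reads of the X copy could be lost in counting.

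The exchange factor eIF2B, which reloads eIF2 with GTP, held no called subunit. Eif2b1 was at 46.1 and 65.2 CPM in controls and at 74.2 and 69.4 CPM in the knockout-labelled libraries (log2 fold change 0.37 ± 0.22 SE, adjusted p = 0.676 in edgeR). Eif2b2 was at 66.9 and 70.3 against 77.1 and 83.7 CPM. These 2 of the 5 subunits lay apart upward, where 19.5% of all genes tested did. Eif2b5, which encodes the catalytic epsilon subunit, was at 12.8 and 21.8 against 14.1 and 14.9 CPM and overlapped, as did Eif2b3 and Eif2b4.

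All 4 eIF2 kinase genes overlapped between the groups. Eif2ak1, the heme-regulated kinase, was at 57.4 and 37.6 CPM in controls and at 50.7 and 59.2 CPM in the knockout-labelled libraries. Eif2ak2, which encodes the double-stranded RNA sensor PKR, was at 35.1 and 44.2 against 44.7 and 32.4 CPM. Eif2ak3, the endoplasmic reticulum kinase PERK, was at 19.9 and 20.3 against 9.73 and 22.8 CPM, where knockout library 3 alone stood low. Eif2ak4 was at 4.62 and 5.46 against 4.84 and 6.20 CPM. Of the 10 genes that respond to eIF2 phosphorylation, 9 were tested and 0 called. Of these, 3 lay apart upward (Sesn2, Atf5 and Ddit4) and 0 downward, beside 19.5% and 20.8% of all genes. Ddit4, a stress-induced inhibitor of mTOR (17.7 and 13.4 against 27.5 and 31.3 CPM), had an unadjusted edgeR p under 0.05, and the list's median log2 fold change was 0.14. Atf4, the transcription factor at the centre of that response, was at 82.5 and 82.1 against 82.0 and 82.3 CPM.

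eIF3, the role group with the most genes, held 8 of the 26 factors that lay apart upward. Of its 14 genes, 8 had both libraries labelled knockout above both controls and 0 had both below, and 6 overlapped, where 19.5% of all genes tested lay apart upward and 20.8% downward. Their median log2 fold change was 0.12, and it was 0.23 without control library 2 and 0.21 without knockout library 3. Eif3g (ENSMUSG00000070319, mm10 chromosome 9, 20894349 to 20898623), an RNA-binding subunit, was at 136.8 and 128.2 CPM in controls and at 190.6 and 192.2 CPM in the knockout-labelled libraries. The replicates lay close together and the groups far apart, with means of 132.5 ± 6.09 and 191.4 ± 1.17 CPM (SD, n = 2 each), a 1.44-fold difference. Its log2 fold change was 0.53 ± 0.14 (SE), with an edgeR adjusted p of 0.327 and a DESeq2 adjusted p of 0.072.

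Eif3h, a subunit with the fold of deubiquitinases, was at 402.2 and 444.8 CPM in controls and at 516.2 and 578.6 CPM in the knockout-labelled libraries (log2 fold change 0.37 ± 0.14 SE, adjusted p = 0.487 in edgeR). Eif3m was at 187.4 and 202.3 against 276.1 and 232.5 CPM (log2 fold change 0.38 ± 0.15 SE, adjusted p = 0.494 in edgeR). Of the 50-base stretches of Eif3h and Eif3m, 20.3% and 18.4% also occur in transcripts of other genes, so their counts could hold or lack reads of those genes. Eif3i, a beta-propeller subunit, was at 148.3 and 149.3 against 186.7 and 181.0 CPM (log2 fold change 0.31 ± 0.14 SE, adjusted p = 0.547 in edgeR). In Eif3g, Eif3h and Eif3i the gap between the groups exceeded the distance within each, while in Eif3m the 2 knockout-labelled libraries differed by more than the gap. Eif3e was at 359.8 and 407.5 against 446.2 and 477.9 CPM (log2 fold change 0.27 ± 0.14 SE, adjusted p = 0.615 in edgeR). Eif3k, Eif3l and Eif3d were the other subunits whose groups lay apart. Eif3d did so narrowly, at 99.5 and 92.6 against 100.9 and 101.2 CPM. Of its 50-base stretches, 37.2% also occur in transcripts of the gene Gm17638.

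The 3 large scaffold subunits overlapped between the groups. Eif3a, the largest, was at 169.0 and 198.4 CPM in controls and at 177.2 and 172.5 CPM in the knockout-labelled libraries, and Eif3c was at 288.1 and 355.5 against 325.6 and 339.0 CPM. Eif3b, the third core subunit, was at 28.2 and 40.8 against 20.99 and 45.3 CPM, with the lowest and the highest value both in libraries labelled knockout. Levels per length within the complex ranged from 1.13 CPM per kb for Eif3j2 to 301.2 for Eif3h.

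The eIF3j pair could not be read apart. Of the 50-base stretches of Eif3j2, 91.8% also occur in transcripts of other genes, chiefly Eif3j1, and 50.9% of those of Eif3j1 do. Eif3j1 was at 35.7 and 13.8 CPM in controls and at 30.5 and 17.3 CPM in the knockout-labelled libraries, and Eif3j2 at 5.16 and 1.16 against 2.86 and 1.57 CPM. In both genes control library 1 and knockout library 3 were high and the other two low. Their 2.58-fold and 4.43-fold distances between the 2 controls were the largest of all tested factors.

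**Figure D3:**
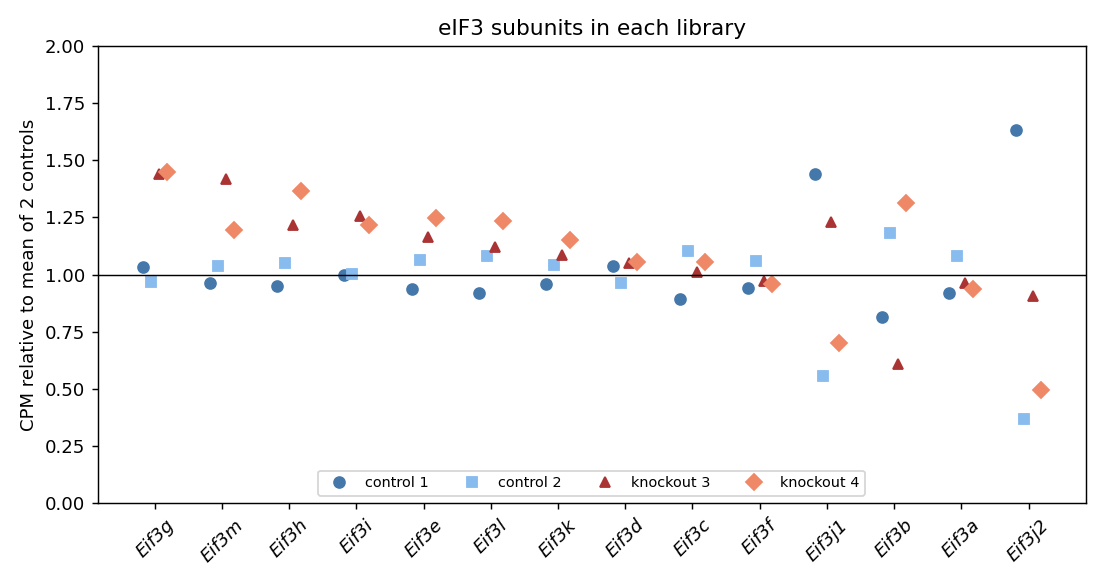
CPM of each eIF3 gene in the 4 libraries, divided by the mean of the 2 controls (vertical axis), with genes ordered by fold change. Both libraries labelled knockout lie above both controls in 8 genes, from Eif3g to Eif3d, and Eif3j1 and Eif3j2 differ most between replicates.

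The cap-binding complex and its helpers lay on both sides of 0 by subunit, and none was called. Eif4e, which encodes the cap-binding protein, was at 167.0 and 166.4 CPM in controls and at 191.4 and 188.0 CPM in the knockout-labelled libraries (log2 fold change 0.19 ± 0.13 SE, adjusted p = 0.752 in edgeR). Eif4h, a helper of the eIF4A helicase, was at 143.4 and 147.7 against 165.9 and 187.4 CPM (log2 fold change 0.28 ± 0.14 SE, adjusted p = 0.615 in edgeR). Of the 3 eIF4G scaffold genes, Eif4g1 and Eif4g3 lay the other way. Eif4g1 was at 92.6 and 91.8 CPM in controls and at 71.1 and 76.5 CPM in the knockout-labelled libraries (log2 fold change -0.32 ± 0.16 SE, adjusted p = 0.582 in edgeR). Eif4g3 was at 62.1 and 64.2 against 53.4 and 32.1 CPM (log2 fold change -0.56 ± 0.27 SE, adjusted p = 0.582 in edgeR), with knockout library 4 the lowest, and its log2 fold change was -0.27 without that library. Both libraries labelled knockout lay below both controls for Eif4g1 and Eif4g3, where they did for 20.8% of all genes tested. Eif4g2 was at 1864 and 1783 against 1878 and 1906 CPM, narrowly apart upward. Eif4g1 stood at 0.0692 and 0.0717 of Eif4g2 per length in controls and at 0.0528 and 0.0559 in the knockout-labelled libraries.

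The helicase genes were level. Eif4a1 was at 145.0 and 149.3 CPM in controls and at 160.4 and 131.4 CPM in the knockout-labelled libraries, and Eif4a2 at 591.8 and 602.9 against 493.9 and 645.5 CPM. Per length, Eif4a1 stood at 0.302 and 0.305 of Eif4a2 in controls and at 0.4 and 0.251 in the knockout-labelled libraries, below Eif4a2 in each. Of the 50-base stretches of Eif4a1, 28.4% occur in other genes, among them processed pseudogenes, so its level may be understated. Eif4a3, the helicase of the exon junction complex, overlapped at 165.4 and 202.1 against 189.7 and 227.1 CPM. Eif4b (231.0 and 252.7 against 252.2 and 244.4 CPM), Eif4e2, a repressive cap-binding protein (124.8 and 123.6 against 99.0 and 140.4 CPM), and Eif4e3 (45.5 and 35.0 against 41.6 and 54.9 CPM) overlapped as well.

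Among the inhibitors of eIF4E, Eif4enif1 showed the largest fold change of all tested factors. Eif4enif1 (ENSMUSG00000020454, mm10 chromosome 11, 3202392 to 3244588) encodes 4E-T, which binds eIF4E, carries it to the nucleus and joins repressed mRNAs in P-bodies. It was at 54.5 and 102.7 CPM in controls and at 28.6 and 46.0 CPM in the knockout-labelled libraries. Both of the latter lay below both controls, but the controls themselves differed 1.88-fold, and group means stood at 78.6 ± 34.1 and 37.3 ± 12.3 CPM (n = 2 each, ± SD). Its log2 fold change was -1.08 ± 0.37 (SE), with an edgeR adjusted p of 0.424 and a DESeq2 adjusted p of 0.074. It was -0.55 without control library 2 and -1.48 without knockout library 4. Without a filter on low counts edgeR called it lower (adjusted p = 0.000485), in a fit that called 2.35% of 23999 genes.

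The eIF4E-binding proteins block the cap until mTOR phosphorylates them, and neither tested gene was called. Eif4ebp1 was at 21.6 and 21.6 CPM in controls and at 24.4 and 33.5 CPM in the knockout-labelled libraries (log2 fold change 0.42 ± 0.26 SE, adjusted p = 0.699 in edgeR), and its log2 fold change was 0.15 without knockout library 4. Eif4ebp2 was at 9.12 and 4.51 against 5.79 and 4.44 CPM and overlapped. Per length, Eif4ebp1 stood at 0.353 and 0.355 of Eif4e in controls, at 0.348 in knockout library 3 and at 0.488 in knockout library 4. Eif4enif1 stood at 0.308 and 0.582 of Eif4e in controls and at 0.141 and 0.231 in the knockout-labelled libraries. Eef2k stood at 0.0103 and 0.00922 of Eef2 in controls and at 0.00838 and 0.00696 in the knockout-labelled libraries. The pairs were chosen after the values were seen. These ratios do not depend on the scaling between libraries. An exact permutation test of 2 against 2 libraries cannot give a two-sided p under 0.333, so none was run.

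**Figure D4:**
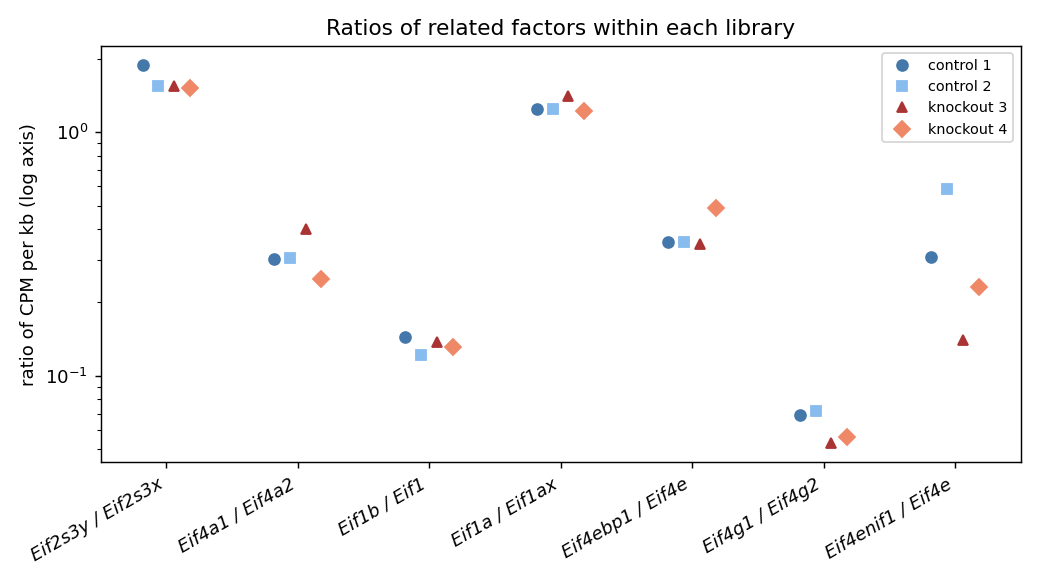
Ratio of the levels per length of related factors within each library (vertical log axis), 1 symbol per library. Eif4enif1 to Eif4e and Eif4g1 to Eif4g2 are lower in both libraries labelled knockout than in both controls, Eif2s3y to Eif2s3x is lower by a margin of 1.545 against 1.544, and the other 4 ratios overlap.

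The joining factors and the hypusine factor were slightly lower or level. Eif5a was at 1127 and 1063 CPM in controls and at 992.8 and 1016 CPM in the knockout-labelled libraries (log2 fold change -0.12 ± 0.13 SE, adjusted p = 0.859 in edgeR). Eif5b, which joins the subunits, was at 140.1 and 149.1 against 132.7 and 124.2 CPM. Both were lower in both libraries labelled knockout, where 20.8% of all genes tested were. Eif5, which triggers GTP hydrolysis on eIF2, was at 94.5 and 88.1 against 92.2 and 81.8 CPM and overlapped. Eif6, which keeps the large subunit from joining too early, was at 107.4 and 123.1 against 138.4 and 136.7 CPM, with the groups apart upward (log2 fold change 0.26 ± 0.15 SE, adjusted p = 0.675 in edgeR). Dohh, an enzyme that makes hypusine on eIF5A, was at 23.6 and 22.3 against 23.6 and 18.9 CPM, and its partner Dhps overlapped between groups as well. Of the 3 genes of hypusination and selenocysteine use, 0 were called and 1 lay apart upward, where 19.5% of all genes tested did. Their median log2 fold change was 0.01.

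The 5 tested eEF1 genes had log2 fold changes between 0.04 and 0.27, with a median of 0.13 that became 0.31 without control library 2. Eef1a1 (mm10 chromosome 9, 78478449 to 78489151) was at 4696 and 5356 CPM in controls and at 5941 and 6155 CPM in the knockout-labelled libraries. Its groups lay apart, with means of 5026 ± 466.7 and 6048 ± 151.1 CPM (SD, n = 2 each) and a log2 fold change of 0.27 ± 0.14 (SE), for which edgeR gave an adjusted p of 0.618. Eef1b2 (241.7 and 253.0 against 277.1 and 264.5 CPM) and Eef1d (214.0 and 242.8 against 254.8 and 274.0 CPM), which reload eEF1A with GTP, lay apart in the same direction. Thus 3 of the 5 lay apart upward, where 19.5% of all genes tested did. Eef1g, their scaffold, was at 360.2 and 486.1 against 426.1 and 490.1 CPM, and Eef1e1, a subunit of the tRNA synthetase complex, at 44.0 and 40.2 against 43.4 and 43.0 CPM. Of the 50-base stretches of Eef1a1 and Eef1g, 40.4% and 44.2% occur in other genes, so their counts could hold or lack reads of pseudogenes.

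Eef2 and its inhibitory kinase lay on opposite sides of 0. Eef2 was at 1445 and 1592 CPM in controls and at 1638 and 1670 CPM in the knockout-labelled libraries (log2 fold change 0.12 ± 0.13 SE, adjusted p = 0.87 in edgeR). Eef2k, which stops elongation by phosphorylating eEF2, was at 33.1 and 32.7 against 30.6 and 25.9 CPM. Both genes had groups that lay apart, where 19.5% of all genes tested did so upward and 20.8% downward. The genes of methyltransferases that modify eEF1A or eEF2 lay apart upward in 3 of 3 tested, where 19.5% of all genes did. Eef1akmt2 was at 19.9 and 20.4 CPM in controls and at 27.5 and 30.7 CPM in the knockout-labelled libraries (log2 fold change 0.53 ± 0.24 SE, adjusted p = 0.548 in edgeR).

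Fold change went with transcript length in the factors and in other well-expressed genes. Across the 63 tested factors the rank correlation of log2 fold change with union exon length was -0.53, and across the 7700 tested genes of at least 10 CPM it was -0.32. Over all 14863 genes tested it was -0.09. These points share the same 4 libraries, and no p is given. The 12 factors under 2500 bases of exon had a median log2 fold change of 0.31, the 25 from 2500 to 5000 bases 0.12, and the 26 of 5000 bases and over -0.05. Among genes of at least 10 CPM the medians in the same ranges were 0.14, 0.05 and -0.10. The 7 factors with both libraries labelled knockout below both controls had a median exon length of 7374 bases, and the 26 with both above had one of 2688 bases. Eif3g has 1984 bases of exon, Eif3h 1612 and Eif1 2098, while Eif4enif1 has 6370, Eif4g1 7301 and Eif4g3 11063.

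With each library's trend on exon length entered as an offset, an alternative added after the data were seen, 48 of the 63 factors (76.2%) had a log2 fold change above 0, against 52.7% of all genes. The median of the factors was then 0.12 and that of all genes 0.03. Eif3g had a log2 fold change of 0.46, Eif4enif1 one of -0.96, Eif4g1 one of -0.20 and Eif4g3 one of -0.39 in that fit, and edgeR called 0 factors. The part of RNA quality or library preparation in the length trend was not tested.

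**Figure D5:**
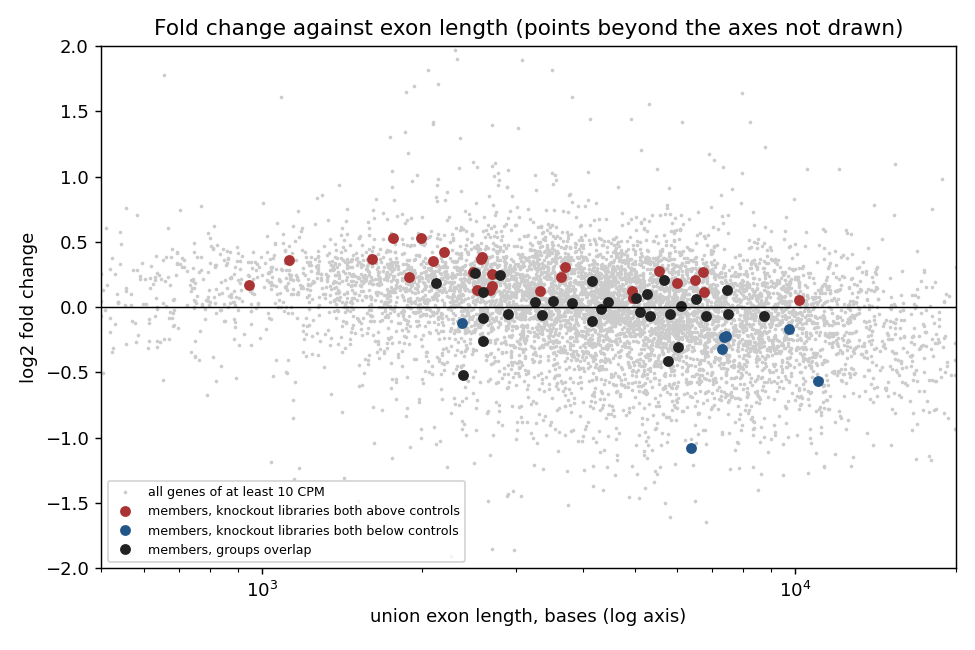
Log2 fold change (vertical axis) against union exon length (horizontal log axis) for the 63 tested factors, coloured by whether the 2 groups of libraries lie apart, over all tested genes of at least 10 CPM in grey. Factors under 2500 bases have a median of 0.31, and 6 of the 7 factors that lie below the controls have 5000 bases or more.

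Other lists of translation genes held 0 called genes, and their counts of genes apart are to be read beside the 19.5% of all genes apart upward and 20.8% downward. Of the 8 tested termination and recycling genes of 9, 4 lay apart upward and 1 downward, with a median log2 fold change of 0.16 and 0 called. Of the 8 poly(A)-binding proteins and partners, 0 lay apart upward and 3 downward, with a median of -0.26 and 0 called. Paip1, a partner of the poly(A)-binding protein that binds eIF4A and eIF3, was at 248.1 and 297.2 CPM in controls and at 186.7 and 202.0 CPM in the knockout-labelled libraries (log2 fold change -0.49 ± 0.15 SE, adjusted p = 0.397 in edgeR). Of the 10 tested genes that signal to the factors, 1 lay apart upward and 5 downward, with a median of -0.29 and 0 called, and Rps6kb2 had 0 counts in every library. Among them Pdcd4, which encodes an inhibitor of eIF4A, was at 1661 and 2239 against 1237 and 1494 CPM (log2 fold change -0.51 ± 0.19 SE, adjusted p = 0.479 in edgeR). Rps6kb1, the gene of the S6 kinase downstream of mTOR, was at 127.4 and 156.2 against 106.4 and 105.2 CPM (adjusted p = 0.492 in edgeR).

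The factors of mitochondrial translation, a separate machinery, had 2 of 9 genes apart upward and 1 downward, beside 19.5% and 20.8% of all genes. Their median was -0.18. Gfm2, which recycles mitochondrial ribosomes, was at 62.7 and 97.8 CPM in controls and at 33.8 and 46.4 CPM in the knockout-labelled libraries (log2 fold change -1.001 ± 0.28 SE, adjusted p = 0.358 in edgeR). The 6 further cytoplasmic factors without an Eif or Eef symbol had a median of 0.06, with 2 apart upward and 0 downward, beside the same shares. No gene of these lists was called by edgeR over all genes.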

How the data were processed

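The labels' protocols describe low-input SMARTer libraries from 4 samples, read on a NovaSeq. Deposited were raw read counts per gene, 1 column per library, as whole numbers. The submitters' processing notes name bcl2fastq, STAR 2.5.1a, Subread, featureCounts 1.4.6-p5, DESeq2 and mm10. Annotation, strand setting and the handling of reads with several matches are not given in the sources used here. Of 40757 lines, 276 repeats with identical counts were dropped. Replicates differed far beyond sampling noise (chi-square per degree of freedom of 90.9 in controls and 83.7 in the libraries labelled knockout), so each counted as 1 sample.

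Counts were filtered with filterByExpr, scaled by TMM and tested with edgeR 4.0.16 (quasi-likelihood, robust, two-sided, 2 residual degrees of freedom) in R 4.3.3. Benjamini-Hochberg adjustment covered all 14863 tested genes, and calls used 0.05. SEs are the log2 fold change over the root of F. Levels per length used union exon lengths of GENCODE M21 (mm10). Alternatives were DESeq2 1.42.0 on the filtered genes, limma-voom (limma 3.58.1), other scalings and filters, an exon-length offset, a block by the numbers in the column names and leaving out each library. The fit was tested on simulated data. The genes and lists were chosen with earlier results of these data known. Named were a fixed core of factors, in each role group the 2 with the smallest p and those with the highest and lowest level per length, any called factor and any at 0 counts in both libraries of 1 group only. The ratio pairs, exon-length ranges, TATA letters and check of shared 50-base stretches were chosen after the data were seen. The eIF3 subunits beyond Eif3a, Eif3g, Eif3h and Eif3j2, together with Eif1ad, Eif2a, Eif2b4, Eef1akmt3, Eif4e1b and the genes of other lists, were named after their values were seen.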

Additional observations from a re-analysis of the deposited data

How the results depend on the processing

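The 19 factors whose fold change the text prints with an SE, from Eif3g to Eif5a, kept their direction under each of 13 alternatives. With all 4 libraries kept, none of the 19 but Eif4enif1, without a filter, was called. Leaving out 1 library moved 11 of them by over 1.5 times. Without control library 1, the log2 fold change was 0.14 for Eif2b1, 0.17 for Eef1a1, 0.16 for Eif6, 0.055 for Eef2 and -0.082 for Eif5a. Without control library 2 it was -0.55 for Eif4enif1, 0.64 for Eif2b1, 0.23 for Eif1b and 0.20 for Eef2. Without knockout library 3 it was 0.23 for Eif3m and -0.998 for Eif4g3, and without knockout library 4 it was -0.27 for Eif4g3, 0.15 for Eif4ebp1 and 0.16 for Eif4h. edgeR called 21 genes higher and 2 lower over all genes. It called 299 and 264 without a filter, 40 and 9 with at least 50 counts in 2 libraries, 6 lower with plain library totals, and 1 and 0 with the exon-length offset. DESeq2 called 235 and 188. With single libraries left out, in fits where the lone sample is assumed to vary like the others, it was 0 to 18 higher and 0 to 2 lower. Of the factors, 1 was called lower without a filter. Their median of 0.10 was 0.058 with library totals, 0.126 with upper-quartile factors, 0.082 without a filter, 0.071 with the stricter filter, and 0.083 to 0.152 with single libraries left out. The median of the cap-binding complex and its helpers was 0.038, and it fell to -0.002 with library totals and ranged from -0.026 to 0.091 with single libraries left out. The sample titles number the libraries 1 to 4 and pair none, while the deposited column names number 1 and 2 within each group. With those numbers as a replicate block, added after the data were seen and leaving 1 residual degree of freedom, edgeR called 0 genes higher and 0 lower (857 and 852 at an unadjusted p under 0.05, 7 and 1 of them factors), and the factors' median was 0.106. Same-numbered libraries deviated together with a correlation of 0.0636 across all tested genes and 0.243 across those of at least 10 CPM, and no source says that a number marks a shared origin. Depth limits Eif4e1b and Eef1a2, whose few counts allow no comparison. Eif4ebp3 had too few counts for a comparison as well. Of its 50-base stretches, 65.5% also occur in transcripts of another gene, so that its reads could be lost in counting.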
